A study of Mus musculus with 12 samples.

Results

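Neocortical gene expression was compared between embryonic day 12.5 (E12.5) and postnatal day 5 (P5) in mice with both copies of Chd8 intact, the Chd8+/+ controls of a study of Chd8 haploinsufficiency. The comparison used the 3 E12.5 Chd8+/+ and the 3 P5 Chd8+/+ libraries, chosen by their genotype and age labels, that is 6 of the 12 libraries of the series. All mice were on a C57Bl/6J background and came from crosses that also produced Chd8+/- offspring, in which a β-actinCre-deleted floxed exon removes 1 copy of the gene, and the controls carry no deleted allele. Cortex was microdissected, both hemispheres being taken at E12.5 and a single hemisphere at P5, and messenger RNA was selected, made into dUTP libraries and sequenced as paired ends on an Illumina HiSeq, with 2 runs per library that were summed. Every direction is given as P5 against E12.5. The counts of each stage were deposited as a table of their own, so that stage and batch cannot be told apart anywhere in this comparison, and whether libraries of a stage came from separate litters was not given in the sources used here, so that p-values measure the spread between these libraries.

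At E12.5 the mouse cortical wall consists largely of dividing radial glia, the stem cells that line the ventricle, and of intermediate progenitors derived from them, with the first postmitotic neurons collecting above. Deep-layer neurons are born first and upper-layer neurons later. By P5 neurogenesis has ended, neurons are extending axons and dendrites and forming synapses, and astrocytes, oligodendrocyte precursors and microglia are multiplying. The samples are whole tissue, so that fewer cells of a type and less RNA per cell cannot be told apart.

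Reads counted on genes numbered 42782134 to 50452472 per E12.5 library and 45149693 to 54695236 per P5 library. Pearson's r of log2 values between libraries, across genes, was 0.997 to 0.9975 within E12.5, 0.9969 to 0.9974 within P5 and 0.856 to 0.864 between the stages. Mitochondrial genes took 2.53% to 2.97% of counts at E12.5 and 3.54% to 3.90% at P5. Globin genes took 0.320% to 0.386% and 0.0116% to 0.0123%. Each stage held 1 library with high Xist counts, and Xist and the 4 Y-linked genes examined were not called between the stages. The biological coefficient of variation, the spread between replicates that is left after counting noise, was 7.35%.

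Of 19039 genes that passed the low-count filter, 15992 (84.0%) differed between the stages at a Benjamini-Hochberg adjusted p under 0.05 in edgeR's quasi-likelihood test. At P5, 7948 (41.7%) were higher and 8044 (42.3%) were lower. A change of at least 2-fold was found for 4973 genes that rose (26.1%) and 3816 that fell (20.0%), and the values of 16179 genes (85.0%) did not overlap between the stages. The groups below are described by the size of their change and by their counts, which are to be read against these shares. The median log2 fold change over all genes tested was -0.02 and the median absolute value 0.91. Scaling of library totals centers most genes near 0, so that this median and the near-even division of higher and lower genes depend on it. A shift shared by all genes would not be seen. Levels are given as CPM, counts per 1000000 counts of the library, whose total was scaled by TMM to remove differences in composition, a mean level is given ± SD, and errors of log2 fold changes are standard errors of the model, with n = 3 libraries per stage. Of 67 genes chosen for description library by library, 33 rose, 30 fell and 4 were not called (Igf2, Dnmt3a, Bcl11b and Slc17a6), and these 4 are also the ones whose values overlapped between the stages.

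The widest changes are given first, among genes that reached at least 10 CPM at the higher stage and did not overlap. Gpr37l1, an astrocyte receptor, had no count in any E12.5 library and stood at 54.4, 56.7 and 47.0 CPM at P5, at least 2528-fold higher when 3 counts over the E12.5 group are taken as the floor. Gabrd, the delta subunit of GABA-A receptors, and C4b, a complement component, were likewise at 0 at E12.5, and were at least 574-fold and at least 507-fold higher. Thy1, a surface protein of maturing neurons, was at 0.0961, 0.0917 and 0.0625 CPM at E12.5 and 216, 220.0 and 207 CPM at P5 (log2 fold change 11.28 ± 0.09, adjusted p = 3.19e-15). Gda, Rprml, Ptgds, Gfap, Fam43b and Rxfp1 completed the 10 on the rising side. Among them Ptgds, which makes prostaglandin D2, went from 0.347 ± 0.0361 to 349 ± 10.2 CPM.

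On the falling side 5 of the 10 belong to primitive or fetal red cells. The embryonic alpha-like globin Hba-x was at 892, 722 and 985 CPM at E12.5 and left 1 count over all P5 libraries, a ratio of 124500 with a 95% counting interval of 22350 to 4919000. Hbb-y and Hbb-bh1, the embryonic beta-like globins, left 3 and 2 counts. The erythroid membrane genes Kel and Slc4a1 also fell. Neurog1, a proneural factor of the dorsal telencephalon, was at 12.8, 9.60 and 13.1 CPM at E12.5 and had 1 count at P5, a ratio of 1707 with an interval of 305.9 to 67450. The others were Hmga2, Fndc3c1, Hsd3b6 and Wnt8b, a WNT ligand of the cortical hem that was at 80.2, 66.7 and 67.1 CPM at E12.5 and 0.353, 0.183 and 0.397 CPM at P5. Intervals of ratios cover counting error only. Without P5 replicate 1 the fitted log2 fold changes went from -16.46 to -18.30 for Hba-x, from -16.31 to -17.07 for Hbb-y, from -13.09 to -15.72 for Hbb-bh1 and from -10.27 to -12.11 for Neurog1.

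**Figure D1:**
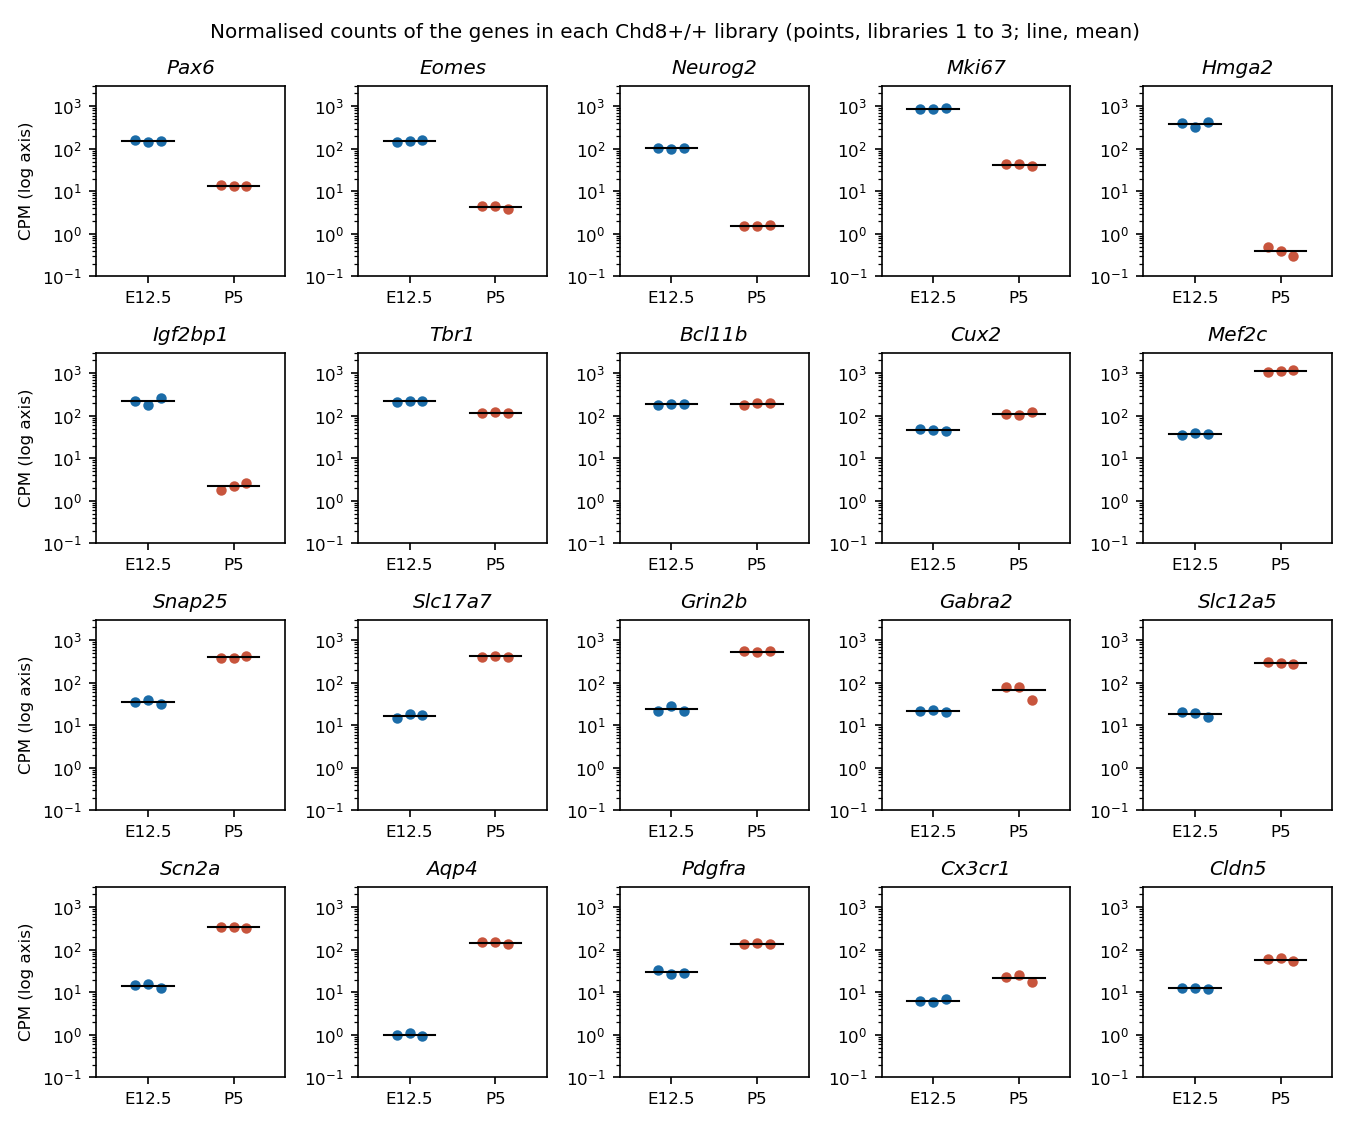
Expression of 20 genes in each library, in CPM on a log axis, with E12.5 and P5 Chd8+/+ libraries as separate points and 3 points per stage. Radial glial, proliferation and embryonic genes sit higher at E12.5, synaptic, channel and glial genes sit higher at P5, the stages overlap for the deep-layer gene Bcl11b, and Pax6 runs from 144 to 159 CPM at E12.5 and from 13.1 to 14 CPM at P5.

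The stem and progenitor program fell as a group. Of 22 radial glial genes tested, 21 were lower at P5, 20 of them by at least 2-fold, and 1 was higher, with a median log2 fold change of -2.70. Pax6 (ENSMUSG00000027168, chr2:105668900-105697364 of GRCm38), which specifies dorsal progenitors, was at 159, 144 and 152 CPM at E12.5 and 14.03, 13.1 and 13.6 CPM at P5 (log2 fold change -3.48 ± 0.05, adjusted p = 8.25e-14). Sox2, a stem cell factor, was at 230.5, 195 and 228 CPM at E12.5 and 47.2, 47.6 and 42.9 CPM at P5 (log2 fold change -2.25 ± 0.07, adjusted p = 1.31e-11). Nes, the intermediate filament of neural progenitors, was at 807, 781 and 889.6 CPM at E12.5 and 53.7, 53.4 and 45.5 CPM at P5 (log2 fold change -4.02 ± 0.09, adjusted p = 8.76e-13). For all 3 genes every E12.5 library lay far above every P5 library.

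The size of the fall differed among members. The Notch effector Hes5 was at 36.5, 33.9 and 39.2 CPM at E12.5 and 13.4, 13.2 and 12.8 CPM at P5, a log2 fold change of -1.47 ± 0.07, against -2.41 ± 0.10 for its relative Hes1. The regional identity gene Emx1 had a log2 fold change of -1.11 ± 0.06, whereas Emx2, its partner in patterning the cortical sheet, had -3.44 ± 0.06 and Gli3, the mediator of Hedgehog signaling, -4.69 ± 0.08. Fabp7, the brain lipid-binding protein that radial glia share with astrocytes, was the member that rose, from 234 ± 18.7 to 464 ± 59.1 CPM (log2 fold change 0.98 ± 0.09, adjusted p = 6.56e-07).

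Intermediate progenitor and neurogenic genes fell in 11 of 12 cases, all 11 by at least 2-fold, with a median of -2.78. Eomes (Tbr2), which defines intermediate progenitors, was at 148, 149.9 and 158 CPM at E12.5 and 4.44, 4.48 and 3.94 CPM at P5 (log2 fold change -5.15 ± 0.06, adjusted p = 1.82e-14). The proneural factor Neurog2 was at 102, 100.5 and 104 CPM at E12.5 and 1.52, 1.53 and 1.61 CPM at P5 (log2 fold change -6.04 ± 0.07, adjusted p = 1.68e-14). The Notch ligands Dll1 and Dll3 had log2 fold changes of -2.89 ± 0.07 and -2.20 ± 0.09. Plk3, a stress-responsive kinase, was the member that rose, with 0.55 ± 0.07.

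Cell cycle genes fell together. All 34 genes of replication licensing and the fork were lower by at least 2-fold, with a median of -3.34, and all 35 mitotic genes were lower, 34 by at least 2-fold, with a median of -4.12. The summed level of the mitotic list was 6666 to 7055 CPM at E12.5 and 370.3 to 394 CPM at P5. Pttg1 (securin), which guards sister chromatid cohesion, was the mitotic gene that fell by less than 2-fold (-0.22 ± 0.09), a call that was lost without any one of E12.5 replicates 2 and 3 and P5 replicates 1 and 3 (-0.23 to -0.16), while the other mitotic members lay between -2.97 for Mad2l1, a checkpoint gene, and -4.87 for the checkpoint kinase Bub1. Mki67, the proliferation antigen, was at 875, 861 and 912 CPM at E12.5 and 43.8, 44.2 and 39.0 CPM at P5 (log2 fold change -4.38 ± 0.07, adjusted p = 1.46e-13). Top2a, the topoisomerase that untangles mitotic chromosomes, was at 899.8, 958 and 985 CPM at E12.5 and 43.4, 43.3 and 38.4 CPM at P5 (log2 fold change -4.51 ± 0.08, adjusted p = 1.66e-13). Cdk1, the kinase that drives entry into mitosis, was at 134, 151 and 144 CPM at E12.5 and 10.99, 10.8 and 9.48 CPM at P5 (log2 fold change -3.77 ± 0.07, adjusted p = 2.16e-13). For each of these genes all P5 libraries lay close together and below all E12.5 libraries.

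Among replication genes the helicase subunit Mcm2 was at 271, 285 and 295 CPM at E12.5 and 16.9, 16.9 and 14.6 CPM at P5 (log2 fold change -4.13 ± 0.06, adjusted p = 7.41e-14). Pcna, the sliding clamp of DNA polymerases, was at 303, 354 and 335 CPM at E12.5 and 47.5, 48.8 and 43.6 CPM at P5 (log2 fold change -2.83 ± 0.07, adjusted p = 1.88e-12). Orc6 and Rfc2, subunits of the origin recognition complex and of the clamp loader, had the smallest falls, with -1.14 ± 0.06 and -1.12 ± 0.05, and Cdc6, the licensing factor, the steepest, with -4.62 ± 0.10. The G1 machinery was mixed. Of 24 genes 21 fell, 20 by at least 2-fold, and 3 rose by less than 2-fold, with a median of -1.98. Ccnd1 (cyclin D1) was at 340.3, 325 and 379.9 CPM at E12.5 and 34.0, 32.5 and 25.2 CPM at P5 (log2 fold change -3.51 ± 0.10, adjusted p = 1.07e-11). The atypical E2Fs E2f7 and E2f8 had log2 fold changes of -4.0 ± 0.10 and -4.11 ± 0.12, against -1.42 ± 0.06 for E2f3. The members that rose were the pocket protein Rbl2 (0.39 ± 0.06) and the CDK inhibitors Cdkn1a (0.85 ± 0.06) and Cdkn2d (0.91 ± 0.07), whereas the inhibitors Cdkn1b and Cdkn1c fell, with log2 fold changes of -1.39 ± 0.04 and -2.27 ± 0.05.

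Because these genes moved together, the sequence before their start sites was read. Windows of 300 bases, from 250 before to 50 after the RefSeq start on GRCm38.p6, were found for 31 of the 35 mitotic and 27 of the 34 replication genes. Both strands were searched for the CCAAT box (CCAAT), the cell cycle gene homology region (TTTGAA), 4 spellings of the E2F motif (TTTCGCGC, TTTGGCGC, TTTCCCGC and TTTGCCGC) and a repressor element 1 half-site (TTCAGCACC), none of which contains another. The promoters of 4 mitotic genes are shown as far as their start, with both kinds of element in capitals, on the strand of the gene. They are those of Cdk1 (chr10:69352913-69353002, minus strand), Top2a (chr11:99024190-99024299, minus), Cdc20, an activator of the anaphase-promoting complex (chr4:118437344-118437433, minus), and Ube2c, its ubiquitin-conjugating enzyme (chr2:164769829-164769928, plus).
Cdk1: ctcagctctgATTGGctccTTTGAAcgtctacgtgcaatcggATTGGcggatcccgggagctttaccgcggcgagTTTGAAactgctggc
Top2a: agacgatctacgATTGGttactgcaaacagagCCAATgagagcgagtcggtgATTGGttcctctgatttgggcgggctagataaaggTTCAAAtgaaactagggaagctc
Cdc20: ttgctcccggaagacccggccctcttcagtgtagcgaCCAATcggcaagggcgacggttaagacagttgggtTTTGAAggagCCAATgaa
Ube2c: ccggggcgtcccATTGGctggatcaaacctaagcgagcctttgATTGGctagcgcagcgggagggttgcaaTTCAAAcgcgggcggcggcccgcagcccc
The word ATTGG is CCAAT read from the other strand, and TTCAAA is likewise TTTGAA. In Cdk1 and Top2a the element nearest to the start, TTTGAA and TTCAAA, begins 15 and 23 bases before it, and CCAAT boxes begin between 48 and 98 bases before it in both.

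Over the mitotic list a CCAAT box occurred in 71.9% of 32 windows, TTTGAA in 68.8% and both in 62.5%, against 37.4%, 17.9% and 6.95% of all 32851 windows of the table and 37.1%, 12.4% and 5.0% of the 16504 windows of genes tested. The E2F spellings occurred in 35.5% of the 31 windows of replication genes, in 6.25% of the mitotic windows, in 2.26% of all and in 3.56% of those of genes tested. Among replication genes a CCAAT box was found in 61.3% of windows and TTTGAA in 12.9%. Stretches with E2F spellings are shown from 3 of them, the helicase subunits Mcm5 (chr8:75109339-75109389, plus strand) and Mcm6 (chr1:128359785-128359835, minus) and Orc1, the largest subunit of the origin recognition complex (chr4:108579404-108579453, plus). The capitals mark the E2F spellings on either strand, which overlap in Mcm5 and Mcm6.
Mcm5: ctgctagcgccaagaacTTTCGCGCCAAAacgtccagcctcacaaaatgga
Mcm6: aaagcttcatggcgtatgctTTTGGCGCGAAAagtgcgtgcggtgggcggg
Orc1: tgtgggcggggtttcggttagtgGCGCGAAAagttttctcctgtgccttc
Over all genes that fell by at least 2-fold, E2F spellings were present in 6.52% of 3066 windows, against 1.77% of the 4520 windows of genes that rose by at least 2-fold and 3.44% of the 8918 windows of tested genes with neither call. The 20 windows found for radial glial genes held none. Motif matches are descriptions of these windows and were not tested.

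The embryonic RNA-binding and HMGA genes, which mark early progenitors, all fell by at least 2-fold, 8 of 8, with a median of -4.38. Hmga2 (ENSMUSG00000056758, chr10:120361275-120476469), a chromatin protein of young stem cells, was at 406, 324 and 433 CPM at E12.5 and 0.483, 0.389 and 0.309 CPM at P5 (log2 fold change -9.92 ± 0.16, adjusted p = 1.10e-13). Igf2bp1, which binds messenger RNAs in the embryo, was at 227, 184 and 256 CPM at E12.5 and 1.84, 2.24 and 2.62 CPM at P5 (log2 fold change -6.65 ± 0.15, adjusted p = 9.83e-13). Both were below 3 CPM in every P5 library.
Lin28a and Lin28b, the blockers of let-7 maturation, both fell. Lin28a was low already at E12.5, with 2.48, 1.22 and 2.21 CPM at E12.5 and 0.130, 0.0457 and 0.0882 CPM at P5, and Lin28b was at 27.9, 24.6 and 25.5 CPM at E12.5 and 9.19, 7.69 and 10.1 CPM at P5 (log2 fold change -1.53 ± 0.09, adjusted p = 1.02e-08).

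Imprinted growth genes were divided. Of 14 tested, 10 fell, 9 by at least 2-fold, 3 rose (Meg3, Zim1 and Ndn), and Igf2 was not called, with a median of -1.75, and Phlda2 did not pass the filter. The stages overlapped for Ndn (log2 fold change 0.88 ± 0.29, adjusted p = 0.0139), whose log2 fold change was 0.54 without E12.5 replicate 1, and DESeq2 gave it an adjusted p of 0.0610. Dlk1, Mest and Grb10 had log2 fold changes of -4.95 ± 0.09, -4.50 ± 0.08 and -3.58 ± 0.07. Igf2, the fetal growth factor, was at 308, 263 and 289 CPM at E12.5 and 297, 254 and 281 CPM at P5 and the stages overlapped (log2 fold change -0.05 ± 0.07, adjusted p = 0.563). The long noncoding RNA Meg3, expressed from the maternal chromosome at the Dlk1 locus, went the other way, from 486 ± 99.99 to 2555 ± 397 CPM (log2 fold change 2.39 ± 0.15, adjusted p = 1.30e-08), while H19, the maternally expressed transcript beside Igf2, had -3.50 ± 0.08.

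Chromatin factors included paralogs that moved in opposite directions. Of the 11 BAF subunits that differ between progenitors and neurons, 5 rose and 6 fell. Actl6a, the progenitor form of an actin-related subunit, was at 119, 133 and 125 CPM at E12.5 and 15.7, 14.96 and 13.2 CPM at P5 (log2 fold change -3.10 ± 0.07, adjusted p = 1.06e-12). Actl6b, its neuronal counterpart, was at 42.9, 49.5 and 37.5 CPM at E12.5 and 128, 126 and 129 CPM at P5 (log2 fold change 1.56 ± 0.08, adjusted p = 1.48e-09). The 5 that rose were Actl6b, Ss18l1, Dpf1, Dpf3 and the ATPase Smarca2 (1.46 ± 0.04), of which Dpf3 (0.40 ± 0.14) lost its call without E12.5 replicate 1 or 3 or P5 replicate 1 (0.30 to 0.34), and its alternative ATPase Smarca4 had -1.05 ± 0.07. Of the 9 CHD remodelers 7 fell and 2 rose, Chd5 and Chd3. Chd5, the neuronal member, went from 36.9 ± 5.83 to 388 ± 11.2 CPM (log2 fold change 3.39 ± 0.10, adjusted p = 9.27e-12), and Chd7, which is mutated in CHARGE syndrome, had -3.09 ± 0.07. Chd8 itself (ENSMUSG00000053754, chr14:52198151-52257723) was at 233, 228 and 235 CPM at E12.5 and 150, 150.4 and 145 CPM at P5 (log2 fold change -0.64 ± 0.04, adjusted p = 2.25e-08), so that the normal cortex had about 1.56-fold less of it per counted read at P5 than at E12.5, with no overlap.

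Of the 11 subunits of Polycomb repressive complex 2 and its cofactors, 9 fell, 7 by at least 2-fold, and Ezh1 and Phf1 rose. The methyltransferase Ezh2 went from 305 ± 17.1 to 26.3 ± 1.10 CPM (log2 fold change -3.54 ± 0.06, adjusted p = 9.99e-14) and its alternative Ezh1 from 16.3 ± 1.31 to 42.8 ± 0.791 CPM (log2 fold change 1.40 ± 0.07, adjusted p = 1.08e-09). DNA methylation genes fell in 12 of 13 cases, 5 by at least 2-fold, with a median of -0.95. Uhrf1, which brings the maintenance enzyme to replicated DNA, had -4.57 ± 0.08, and that enzyme, Dnmt1, had -1.51 ± 0.07. The de novo methyltransferase Dnmt3b was at 16.7, 13.5 and 16.1 CPM at E12.5 and 2.67, 2.17 and 2.95 CPM at P5 (log2 fold change -2.57 ± 0.12, adjusted p = 9.90e-10). Dnmt3a was at 277.7, 259.6 and 288 CPM at E12.5 and 293, 292 and 282 CPM at P5, overlapping between the stages (log2 fold change 0.07 ± 0.06, adjusted p = 0.253).

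The balance within such pairs was measured as the share that the second gene took of a pair's summed CPM per kb of exon, the scale on which levels of different genes can be set side by side. Actl6b took 23.8% ± 2.09 (SD, n = 3) of the Actl6a and Actl6b sum at E12.5 and 88.8% ± 0.887 at P5. Ezh1 took 4.58% ± 0.344 of the Ezh2 and Ezh1 sum and then 59.4% ± 0.803. The corresponding shares were 38.1% ± 0.749 and 74.7% ± 0.630 for Ss18l1 beside Ss18, and 41.7% ± 1.86 and 79.97% ± 0.483 for Chd3 beside Chd4. In each of these pairs the second gene's share was higher in all P5 libraries than in any E12.5 library. With 3 libraries against 3 an exact two-sided permutation test cannot go below p = 0.10, and no test of a share is given.

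**Figure D2:**
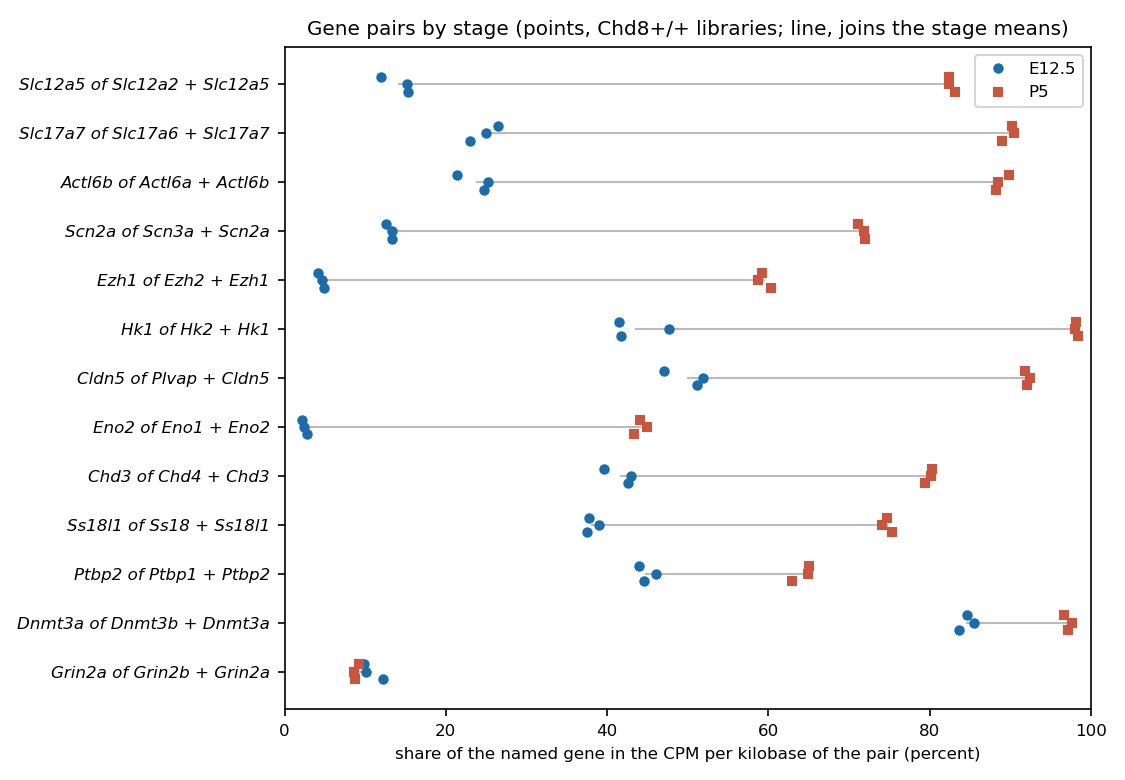
Share of the second gene in the summed CPM per kb of a pair of genes, in percent, for 13 pairs, with a point for each of the 3 libraries per stage. In 12 pairs the stages lie apart with the second gene's share higher at P5, and in the pair of Grin2b and Grin2a the shares run from 9.84% to 12.2% at E12.5 and from 8.55% to 9.21% at P5.

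Marker genes of the cortical layers were described by list, and the lists were not compared by a test. Of 11 deep-layer genes 4 rose, 6 fell and Bcl11b was not called, with a median of -0.24, and of 11 upper-layer genes 8 rose, all by at least 2-fold, and 3 fell, with a median of 1.39. Bcl11b (Ctip2), a factor of subcerebral projection neurons, was at 179, 194 and 186 CPM at E12.5 and 184, 198 and 199 CPM at P5 (log2 fold change 0.06 ± 0.05, adjusted p = 0.297). Fezf2, which acts upstream of it, was at 68.6, 69.7 and 65.7 CPM at E12.5 and 46.8, 47.8 and 51.4 CPM at P5 (log2 fold change -0.48 ± 0.05, adjusted p = 3.62e-06), and the layer VI factor Tbr1 at 208, 229 and 228 CPM at E12.5 and 115, 124 and 118 CPM at P5 (log2 fold change -0.89 ± 0.05, adjusted p = 4.80e-09). The stages overlapped for Bcl11b and not for Fezf2 or Tbr1.
Among deep-layer genes Crym, a thyroid hormone-binding protein, and Ldb2, a LIM cofactor, were the members with a rise of at least 2-fold (4.80 ± 0.10 and 2.53 ± 0.06).

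The widest rise in the upper-layer list was that of Mef2c, whose expression by layer or cell type was not measured here. Mef2c, an activity-regulated factor, was at 34.7, 38.7 and 36.4 CPM at E12.5 and 1059, 1114 and 1173 CPM at P5 (log2 fold change 4.93 ± 0.08, adjusted p = 9.19e-14). Cux2, an upper-layer homeobox gene, was at 49.9, 45.6 and 43.4 CPM at E12.5 and 109, 105 and 121 CPM at P5 (log2 fold change 1.27 ± 0.06, adjusted p = 1.58e-09). Cux1, Pou3f2 and Pou3f3, which progenitors also express, were the members that fell (-0.87 ± 0.07, -0.69 ± 0.06 and -1.12 ± 0.06).

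The neuronal bHLH factors were divided. Of 9, 6 fell and Neurod2, Neurod6 and Bhlhe22 rose. Neurod6, found in postmitotic pyramidal neurons, was at 68.1, 103 and 78.2 CPM at E12.5 and 228, 249 and 234 CPM at P5 (log2 fold change 1.51 ± 0.12, adjusted p = 9.37e-08). The early transient factors Nhlh1 and Neurod4 had -6.31 ± 0.11 and -3.98 ± 0.13. Cajal-Retzius and subplate genes, which mark the first-born neurons, were divided too, 5 rising and 4 falling. Reln, the secreted positional signal of Cajal-Retzius cells that interneurons also make, was at 174, 206 and 180.4 CPM at E12.5 and 355, 357 and 363 CPM at P5 (log2 fold change 0.94 ± 0.07, adjusted p = 4.22e-08), whereas the Cajal-Retzius factor Trp73 was at 36.3, 37.8 and 31.6 CPM at E12.5 and 6.07, 6.66 and 7.08 CPM at P5 (log2 fold change -2.42 ± 0.09, adjusted p = 6.49e-11). Cplx3, a complexin of subplate neurons, had 3 counts in all at E12.5 and 1570 at P5, a ratio of 525.9 with a 95% counting interval of 179.6 to 2553, and its fitted log2 fold change of 8.86 was 9.71 without E12.5 replicate 3.

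Genes of GABAergic interneurons, which migrate into the cortex from the ganglionic eminences, rose in 11 of 21 cases and fell in 9, and Lhx6 was not called. The 3 widest rises were those of the neuropeptide genes Vip, Sst and Npy. Sst (somatostatin) was at 6.90, 9.83 and 5.23 CPM at E12.5 and 119, 128 and 124 CPM at P5 (log2 fold change 4.09 ± 0.15, adjusted p = 9.79e-11), Npy had 3.85 ± 0.11, and Vip had no count at E12.5 and was at least 263-fold higher. Among transcription factors of the lineage Dlx2, Sp8 and Sox6 fell (-2.62 ± 0.06, -2.14 ± 0.09 and -1.84 ± 0.06), and Maf rose (1.32 ± 0.07). Of the GABA synthetic enzymes Gad1 rose (1.77 ± 0.05) and Gad2 fell (-0.20 ± 0.05), a small change whose call was not kept in every alternative.
Markers of the neighboring striatum were measured beside these. Of 12 medium spiny neuron genes 10 rose by at least 2-fold and 2 fell, Isl1 and Ebf1, with summed levels of 148 to 166 CPM at E12.5 and 545 to 597 CPM at P5. Drd1, the D1 dopamine receptor, was at 0.288, 0.367 and 0.188 CPM at E12.5 and 27.1, 28.0 and 25.9 CPM at P5. Several of the list, Penk, Pde10a and Tac1 among them, are expressed in cortex as well, and the part of striatal tissue in the neuronal and synaptic results was not tested.

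Cytoskeletal genes of neurons rose in most cases but over a wide range. Of 22 tubulins and microtubule-associated proteins 17 rose, 10 by at least 2-fold, and 5 fell, with a median of 0.84. Mapt (tau) was at 203, 258 and 204 CPM at E12.5 and 2485, 2597 and 2618 CPM at P5 (log2 fold change 3.53 ± 0.10, adjusted p = 8.18e-12). Tubb3, the neuronal beta-tubulin, was at 1009, 1229 and 1120 CPM at E12.5 and 2119, 2220 and 2077 CPM at P5 (log2 fold change 0.93 ± 0.08, adjusted p = 2.46e-07), and Dcx (doublecortin), a marker of migrating neurons, at 806, 925 and 833 CPM at E12.5 and 1058, 1057 and 1097 CPM at P5 (log2 fold change 0.33 ± 0.07, adjusted p = 7.27e-04). These genes were already abundant at E12.5, and the rise of Dcx was the smallest of the 3. Tuba1c was the tubulin with the steepest fall (-3.45 ± 0.07) and Tuba4a the one with the widest rise (4.45 ± 0.07). Tubulin genes share long near-identical stretches, so that single values depend on how shared reads were counted.
Of 10 neurofilament and growth cone genes 8 rose. Nefm was at 37.1, 41.1 and 38.6 CPM at E12.5 and 119, 111 and 103 CPM at P5 (log2 fold change 1.51 ± 0.06, adjusted p = 2.16e-10), and Gap43, the growth cone protein, had 3.33 ± 0.09. Ina, the early neurofilament alpha-internexin, and Marcks fell (-0.27 ± 0.07 and -0.99 ± 0.06).

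Axon guidance genes were balanced, 23 of 46 rising, 21 falling and 2 (Plxna2 and Ephb3) not called, with a median of 0.12. The receptors Epha8 and Epha6 rose most (4.60 ± 0.08 and 4.16 ± 0.13) and Efnb1, Epha3 and Dcc fell most (-3.03 ± 0.07, -2.67 ± 0.07 and -2.68 ± 0.07). Unc5a, a netrin receptor, rose (2.66 ± 0.07), in the opposite direction to the netrin receptor Dcc, and of the Robo receptors Robo2 rose (1.35 ± 0.06) and Robo3 fell (-2.49 ± 0.18). Of 15 classical and type II cadherins 9 rose, 8 by at least 2-fold, 2 fell and 4 were not called. Cdh9 and Cdh13 had 5.46 ± 0.12 and 4.43 ± 0.09, whereas Cdh2 (N-cadherin), the adhesion protein of the ventricular surface, had -1.13 ± 0.06.

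Genes of the presynapse rose almost without exception. Of 26 synaptic vesicle and active zone genes 25 rose, 24 by at least 2-fold, and Slc17a6 was not called, with a median of 3.41, and the summed level of the list was 1065 to 1161 CPM at E12.5 and 9144 to 9354 CPM at P5. Syp (synaptophysin), a vesicle membrane protein, was at 38.3, 43.9 and 37.3 CPM at E12.5 and 451, 452 and 434 CPM at P5 (log2 fold change 3.48 ± 0.07, adjusted p = 4.70e-13). Snap25, a SNARE of vesicle fusion, was at 34.9, 39.7 and 31.2 CPM at E12.5 and 376, 389 and 421 CPM at P5 (log2 fold change 3.49 ± 0.09, adjusted p = 2.28e-12). Slc17a7 (VGLUT1), the glutamate transporter of cortical vesicles, was at 14.8, 18.1 and 17.6 CPM at E12.5 and 405, 437 and 406 CPM at P5 (log2 fold change 4.63 ± 0.08, adjusted p = 1.79e-13). Its paralog Slc17a6 (VGLUT2) was at 72.8, 79.9 and 72.0 CPM at E12.5 and 73.6, 67.6 and 65.2 CPM at P5 and the stages overlapped (log2 fold change -0.12 ± 0.06, adjusted p = 0.0699). In the sum of the 2 transporters per kb, Slc17a7 took 24.8% ± 1.74 at E12.5 and 89.9% ± 0.790 at P5.

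Syn1 (synapsin I), which tethers vesicles and is a known target of the repressor REST, had a log2 fold change of 3.47 ± 0.06. The stretch of its promoter window from 250 to 200 bases before the start (chrX:20921118-20921168, minus strand) is shown for the repressor element 1 half-site in capitals.
Syn1: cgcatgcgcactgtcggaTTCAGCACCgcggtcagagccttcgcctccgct
This word was present in 2 of the 26 windows found for the list (7.69%), those of Syn1 and Unc13a, in 0.371% of all windows, and in 0.796% and 0.522% of windows of genes that rose or fell by at least 2-fold. No match says only that these letters are absent from the 300 bases.

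At the postsynapse 17 of 20 genes rose and 2 fell, with a median of 2.28. Camk2a, the kinase of synaptic plasticity, was at 69.8, 68.0 and 69.0 CPM at E12.5 and 503, 529.7 and 507 CPM at P5 (log2 fold change 2.90 ± 0.06, adjusted p = 3.37e-13), and Dlg4 (PSD-95), the main scaffold, at 139, 136 and 132 CPM at E12.5 and 605, 617 and 624 CPM at P5 (log2 fold change 2.18 ± 0.06, adjusted p = 3.64e-12). Both were present in every E12.5 library and higher in every P5 library. Nrgn (neurogranin) had the widest rise of the list (7.92 ± 0.10). Camk2b, the other main brain subunit of the kinase, rose as well (5.83 ± 0.13). The scaffolds Dlg1 and Homer3 fell (-1.06 ± 0.06 and -2.09 ± 0.08), and Homer2 was not called (0.02 ± 0.04).

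All 15 ionotropic and all 7 metabotropic glutamate receptor genes tested rose, 13 and 7 of them by at least 2-fold, with medians of 3.00 and 3.10. Grin2b, the NMDA receptor subunit of the young cortex, was at 21.9, 27.9 and 21.9 CPM at E12.5 and 546, 538 and 548 CPM at P5 (log2 fold change 4.51 ± 0.10, adjusted p = 7.08e-13), and Grin2a, the subunit that becomes prominent later, at 2.19, 2.27 and 1.73 CPM at E12.5 and 37.9, 36.3 and 40.1 CPM at P5 (log2 fold change 4.21 ± 0.09, adjusted p = 1.06e-12). Grin2a took 10.7% of their sum per kb at E12.5 and 8.85% at P5, so that Grin2b led at both stages. Grm5, a group I receptor, had 7.22 ± 0.10 and Grin1, the obligatory NMDA receptor subunit, 5.98 ± 0.12. The smallest rises were those of the kainate receptor subunits Grik2 (0.53 ± 0.05) and Grik3 (0.84 ± 0.04).

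Of 15 genes for GABA-A receptors, their anchor and chloride transport, 14 rose by at least 2-fold and Slc12a2 fell, with a median of 3.54. Slc12a5 (KCC2), which exports chloride, was at 21.1, 19.3 and 15.6 CPM at E12.5 and 304, 297 and 283 CPM at P5 (log2 fold change 3.98 ± 0.09, adjusted p = 1.15e-12), and Slc12a2 (NKCC1), which imports it, at 103, 94.9 and 101 CPM at E12.5 and 54.4, 55.5 and 53.1 CPM at P5 (log2 fold change -0.87 ± 0.05, adjusted p = 2.28e-09). Slc12a5 thus took 14.2% ± 1.89 of their sum per kb at E12.5 and 82.6% ± 0.380 at P5. Gabra2, the alpha subunit common at early stages, was at 21.3, 22.5 and 20.5 CPM at E12.5 and 81.5, 81.0 and 39.5 CPM at P5 (log2 fold change 1.65 ± 0.21, adjusted p = 1.36e-05), P5 replicate 3 lying at less than 0.5 of the level of the other P5 libraries. Without that library its log2 fold change was 1.93.

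Voltage-gated and other ion channels rose as well. All 9 sodium channel genes and all 8 calcium channel alpha1 genes rose, and 28 of 29 potassium channel genes did, Kcna3 falling (-0.89 ± 0.12). Medians were 2.30, 2.70 and 3.54. Scn2a was at 14.6, 15.9 and 12.5 CPM at E12.5 and 353, 345 and 326 CPM at P5 (log2 fold change 4.58 ± 0.08, adjusted p = 1.61e-13), and Scn3a, the sodium channel typical of embryonic neurons, at 93.3, 101 and 85.0 CPM at E12.5 and 135, 132 and 129.8 CPM at P5 (log2 fold change 0.51 ± 0.06, adjusted p = 3.01e-06). Scn2a took 13.1% ± 0.399 of their sum per kb at E12.5 and 71.6% ± 0.455 at P5. Kcnj4 and Kcnh3 were the potassium channel genes with the widest rises (8.53 ± 0.13 and 6.42 ± 0.12).

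Regulators of splicing and RNA stability divided evenly, 12 of 27 rising and 13 falling, with a median of -0.16. Ptbp1, the repressor of neuronal exons in progenitors, was at 324, 327 and 347 CPM at E12.5 and 55.2, 52.7 and 49.1 CPM at P5 (log2 fold change -2.67 ± 0.06, adjusted p = 7.06e-13). Ptbp2, which replaces it in young neurons, was at 504, 541 and 527 CPM at E12.5 and 181, 188 and 177 CPM at P5 (log2 fold change -1.52 ± 0.06, adjusted p = 1.09e-10), and Rbfox3 (NeuN), a factor of mature neurons, at 28.0, 30.9 and 28.8 CPM at E12.5 and 184, 191 and 191 CPM at P5 (log2 fold change 2.69 ± 0.05, adjusted p = 1.65e-13). Both Ptbp genes therefore fell while the share of Ptbp2 in their sum per kb went from 44.9% to 64.3%. The Musashi proteins of stem cells, Msi1 and Msi2, had -2.70 ± 0.09 and -2.13 ± 0.06, and Rbfox1 had 3.29 ± 0.09.

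**Figure D3:**
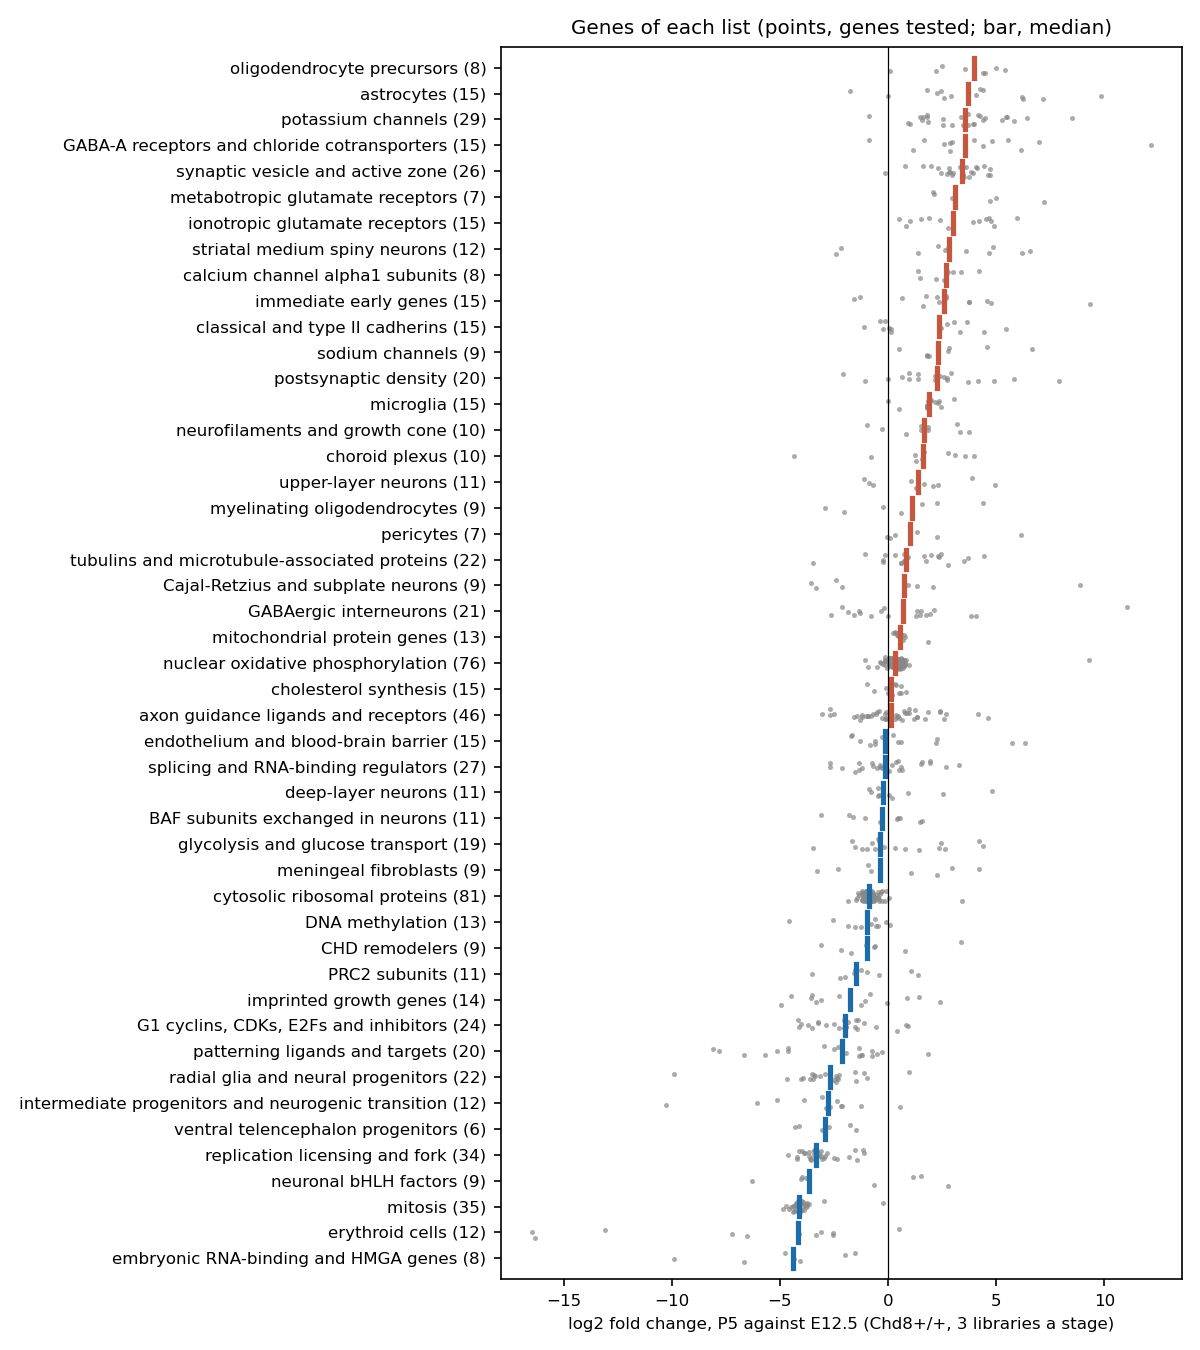
Log2 fold changes, P5 minus E12.5, of the members of each gene list with at least 5 genes tested, with a point for each gene and a bar for the list's median, sorted by the median. Cell cycle and embryonic lists lie on the negative side, with a median of -4.12 for mitosis, and synaptic, channel and glial lists on the positive side, with 3.96 for oligodendrocyte precursors.

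Astrocyte genes rose in 13 of 15 cases, all 13 by at least 2-fold, with a median of 3.70, and their summed level was 733 to 754 CPM at E12.5 and 3942 to 4157 CPM at P5. Aqp4, the water channel of astrocyte endfeet, was at 1.02, 1.10 and 0.937 CPM at E12.5 and 154, 156 and 134 CPM at P5 (log2 fold change 7.18 ± 0.09, adjusted p = 2.64e-14). Aldh1l1, a folate enzyme of astrocytes, was at 1.27, 1.49 and 0.917 CPM at E12.5 and 97.0, 94.8 and 76.6 CPM at P5 (log2 fold change 6.20 ± 0.14, adjusted p = 1.39e-12). Slc1a2 (GLT-1), the glutamate transporter, was at 90.2, 99.2 and 90.8 CPM at E12.5 and 528, 543 and 599 CPM at P5 (log2 fold change 2.58 ± 0.07, adjusted p = 5.60e-12) and thus well above 0 at E12.5 already. Fgfr3, which progenitors express too, fell (-1.75 ± 0.08), and the gap junction gene Gja1 was not called (0.02 ± 0.04).

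Oligodendrocyte lineage genes rose at the precursor stage. Of 8 precursor genes 7 rose, all by at least 2-fold, with a median of 3.96, and Olig2, which ventral progenitors also express, was not called (0.08 ± 0.06). Pdgfra, the receptor by which precursors respond to growth factor, was at 33.6, 26.9 and 28.6 CPM at E12.5 and 134, 141 and 134 CPM at P5 (log2 fold change 2.20 ± 0.07, adjusted p = 2.58e-11). Myelin genes were mixed, 6 of 9 rising and 3 falling. Mbp, myelin basic protein, was at 28.6, 27.6 and 31.6 CPM at E12.5 and 88.9, 86.4 and 82.8 CPM at P5 (log2 fold change 1.56 ± 0.06, adjusted p = 1.63e-10). Mobp, Ermn and Cldn11 were the myelin-associated members that fell, and Opalin did not pass the filter. The fall of Cldn11 was small (-0.26 to -0.21 on leaving out single libraries), and its call was not kept in every alternative.

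Microglial genes rose in 14 of 15 cases, 13 by at least 2-fold, with a median of 1.88 and a summed level of 65.1 to 73.2 CPM at E12.5 and 199.9 to 265 CPM at P5. Cx3cr1, the fractalkine receptor, was at 6.27, 5.98 and 6.87 CPM at E12.5 and 23.3, 25.8 and 17.8 CPM at P5 (log2 fold change 1.81 ± 0.12, adjusted p = 3.45e-08), and the complement gene C1qa at 4.23, 3.804 and 3.67 CPM at E12.5 and 14.9, 16.4 and 14.3 CPM at P5 (log2 fold change 1.96 ± 0.09, adjusted p = 8.45e-10). Siglech had the widest rise (3.06 ± 0.19), and the lysosomal gene Cd68 was not called (-0.00 ± 0.14).

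Endothelial genes moved in both directions. Of 15 endothelial genes 6 rose, 7 fell and 2 were not called, with a median of -0.14. Cldn5, the tight junction protein of the blood-brain barrier, was at 12.6, 12.7 and 12 CPM at E12.5 and 59.7, 62.6 and 54.5 CPM at P5 (log2 fold change 2.25 ± 0.07, adjusted p = 1.57e-11). Plvap, which forms the diaphragms of leaky vessels, was at 17.1, 16.8 and 19.2 CPM at E12.5 and 7.39, 7.23 and 6.94 CPM at P5 (log2 fold change -1.30 ± 0.08, adjusted p = 9.52e-09), so that Cldn5 took 50.01% ± 2.55 of their sum per kb at E12.5 and 92.1% ± 0.358 at P5. The transporter genes of the barrier rose in the case of Slco1c1 (5.72 ± 0.13) and Abcb1a (2.21 ± 0.09) and fell in that of Slc2a1 (-1.68 ± 0.07). Of 7 pericyte genes 5 rose, 3 by at least 2-fold, 0 fell, and Pdgfrb and Abcc9 were not called, with a median of 1.00. Rgs5 and Higd1b were among those that rose (2.26 ± 0.07 and 6.15 ± 0.41), and Pdgfrb had -0.03 ± 0.08.

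Red cell genes fell in 11 of 12 cases, all 11 by at least 2-fold, the summed level of the list being 3230 to 3978 CPM at E12.5 and 122 to 131 CPM at P5. The embryonic globin Hbb-y was at 1899, 1710 and 2159 CPM at E12.5 and 0.0371, 0.0229 and 0 CPM at P5. The adult globin Hbb-bt was at 84.0, 76.0 and 89.7 CPM at E12.5 and 15.03, 14.5 and 13.6 CPM at P5 (log2 fold change -2.53 ± 0.07, adjusted p = 1.04e-11), and Hbb-bs was the member that rose (0.53 ± 0.07). These adult beta-globin genes are near-identical copies, as are Hba-a1 and Hba-a2, and the division of reads between the copies is uncertain. Hbb-bt took 3.92% of the sum of Hbb-y and Hbb-bt per kb at E12.5 and 99.9% at P5.

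Markers of tissue that borders the cortex were measured to describe the dissections. The 9 genes of meningeal fibroblasts summed to 613 to 785 CPM at E12.5 and 338 to 371 CPM at P5, 4 rising and 5 falling, and the collagen gene Col1a1 was at 127, 94.3 and 111 CPM at E12.5 and 69.8, 60.8 and 61.7 CPM at P5 (log2 fold change -0.79 ± 0.09, adjusted p = 5.23e-06). The 10 choroid plexus genes summed to 102 to 159.7 CPM at E12.5 and 530.1 to 664 CPM at P5, 8 rising and 2 falling. Ttr (transthyretin), their most abundant product, was at 68.9, 63.9 and 28.3 CPM at E12.5 and 412, 537 and 438 CPM at P5 (log2 fold change 3.11 ± 0.26, adjusted p = 2.32e-07), with E12.5 replicate 3 below the other E12.5 libraries. Progenitor genes of the ventral telencephalon all fell, 6 of 6 by at least 2-fold, from sums of 396 to 465 CPM at E12.5 to sums of 51.3 to 73.6 CPM at P5. Of 14 Hox and midbrain genes 13 did not pass the filter, and Pax2, the other member, was at 0.423, 0.550 and 1.54 CPM at E12.5 and 0.111, 0.114 and 0.110 CPM at P5, with a log2 fold change of -2.87, or -2.08 without E12.5 replicate 3. The part of bordering tissue in the results given here was not tested.

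Signals that pattern the early cortical sheet fell, 18 of 20 genes being lower, 15 by at least 2-fold, with a median of -2.12. Besides Wnt8b, the hem ligand Wnt3a, with 4 counts in all at P5, had -8.12 ± 0.28, or -7.47 without P5 replicate 1, and the fibroblast growth factors of the rostral and ventral midline Fgf15, Fgf8 and Fgf17 had -6.65 ± 0.14, -5.71 ± 0.34 and -5.14 ± 0.16. Lef1, a transcription factor and target of WNT signaling, had -2.48 ± 0.12. Dkk3 was the member that rose (1.86 ± 0.06), and Bmp4 was not called (-0.27 ± 0.13).

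Of 81 cytosolic ribosomal protein genes 78 fell, 23 by at least 2-fold, with a median of -0.90, and their summed level was 27030 to 31940 CPM at E12.5 and 15700 to 16770 CPM at P5. Rpl3l, a muscle paralog, was the member that rose (3.41 ± 0.48), and Rpl24 and Rplp1 were not called. Of 76 nuclear genes of oxidative phosphorylation 48 rose and 8 fell, with 1 in each direction reaching 2-fold and a median of 0.33. These were Cox6a2, which had no count at E12.5 and was at least 79.7-fold higher, and Atp5g2 (-1.08 ± 0.07). Of 13 protein genes of the mitochondrial genome 12 rose, 1 by at least 2-fold, and mt-Co2 was not called. Of these genes mt-Co2, mt-Co3, mt-Nd3 and mt-Nd4l lay between 0.308 and 10.4 CPM in all 6 libraries, and the other 9 between 280.0 and 10610 CPM. The member that rose by at least 2-fold, mt-Nd4l, and mt-Co2 both belong to the low set, and the part of these low counts in the calls was not tested. The call of mt-Co3 (0.75 ± 0.27) was lost without E12.5 replicate 2 or 3 or P5 replicate 1 (0.54 to 0.68).

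Glycolysis genes were divided among isoforms, 8 of 19 rising and 11 falling, with a median of -0.38. Hk1, the hexokinase of adult brain, went from 63.4 ± 2.86 to 398 ± 12.6 CPM (log2 fold change 2.65 ± 0.06, adjusted p = 6.66e-13), and Hk2, the form of proliferating cells, from 57.6 ± 6.55 to 5.28 ± 0.621 CPM (log2 fold change -3.45 ± 0.11, adjusted p = 1.60e-11). Hk1 took 43.6% ± 3.54 of their sum per kb at E12.5 and 98.1% ± 0.163 at P5. Eno2, the neuronal enolase, took 2.44% ± 0.350 of the Eno1 and Eno2 sum and then 44.1% ± 0.817. Cholesterol synthesis genes stayed within 2-fold in all 15 cases, 8 rising, 2 falling and 5 not called. Immediate early genes, which neuronal firing induces, rose in 13 of 15 cases, 12 by at least 2-fold, with a median of 2.58. Egr4 had 1 count at E12.5 and 884 at P5, a ratio of 888.3 with a 95% counting interval of 159 to 35130, and its fitted log2 fold change of 9.35 was 11.22 without E12.5 replicate 3, the library that holds the count. Fos had 2.26 ± 0.16 and Bdnf 3.74 ± 0.14, whereas Ier2 and Dusp1 fell (-1.56 ± 0.10 and -1.30 ± 0.08).

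The length of genes moved with the change at P5. When the 15459 protein-coding genes tested were divided into deciles of genomic span, the decile of the longest genes, 137 to 2961 kb with a median of 228 kb, had a median log2 fold change of 0.79, and 46.2% of it rose by at least 2-fold while 13.2% fell by as much. The other 9 deciles had medians between -0.07 and 0.06, and between 22.5% and 29.7% of their genes rose by at least 2-fold. By the length of exons, which sets how many reads a transcript gives, deciles lay between 26.0% and 29.4% with medians between -0.08 and 0.14. Among the genes described above Grin2b, Reln and Rbfox3, which rose, are examples from the decile of the longest genes, of which 13.2% fell by at least 2-fold. The span of a gene and the membership of synaptic and adhesion lists overlap, and their separate parts were not tested.

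**Figure D4:**
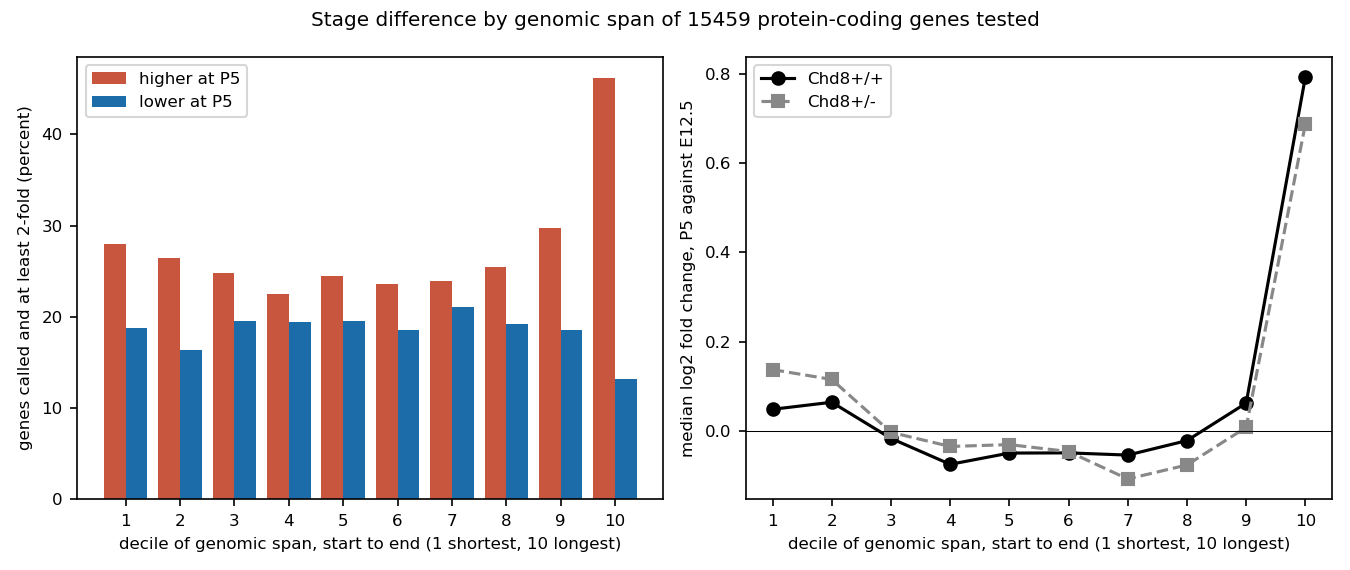
Change between the stages by decile of genomic span, from the shortest to the longest genes, given as the median log2 fold change and as the percent of genes called and at least 2-fold higher or lower at P5. The decile of the longest genes stands apart, with a median of 0.79 against -0.07 to 0.06 in the other deciles.

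The same stage comparison was made in the 3 E12.5 and 3 P5 Chd8+/- libraries, which share no library with the one above but have the same coincidence of stage and batch. Of 18894 genes tested there, 15715 (83.2%) were called. Of 15747 genes called in Chd8+/+ and tested in Chd8+/-, 14745 (93.6%) were called there in the same direction, and of 8565 with a change of at least 2-fold, 7913 (92.4%) again changed by at least 2-fold in that direction. Pearson's r of the log2 fold changes was 0.980 across 18651 genes, which are not independent replicates. The genes called in opposite directions were 5, Aup1 (-0.20 in Chd8+/+ and 0.14 in Chd8+/-), Gpx3 (-0.16 and 0.21), Heatr5b (0.16 and -0.16), 2700062C07Rik (-0.17 and 0.19) and mt-Tm (0.43 and -0.37), and each lost its call in Chd8+/+ without at least 1 of the 6 libraries, Aup1 without P5 replicate 2 and the others on leaving out, singly, any of 3 to 4 of the 6. The interaction of stage and genotype, fitted over all 12 libraries in edgeR, called 0 of 19676 genes at an adjusted p under 0.05. At an unadjusted p under 0.05 there were 1972 genes, a share above 0.05. With 3 libraries per group, 0 calls do not show that the stage change is the same in both genotypes. List medians in Chd8+/- were -2.87 for radial glial genes, against -2.70 in Chd8+/+, and 0.69 for the decile of the longest genes, against 0.79. Among lists with more than a single gene tested, the medians of 9 were least alike. These were oligodendrocyte precursor genes (3.08 in Chd8+/- and 3.96 in Chd8+/+), cadherins (1.85 and 2.36), erythroid genes (-4.66 and -4.15), neuronal bHLH factors (-4.08 and -3.68), sodium channels (2.67 and 2.30), choroid plexus genes (1.25 and 1.61), myelinating oligodendrocyte genes (0.75 and 1.09), the mitochondrial protein genes (0.23 and 0.56) and ventral telencephalon progenitor genes (-3.21 and -2.90), and the differences were not tested.

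Replicate 3 of the P5 Chd8+/- libraries stood apart from its group. Chi-squared per degree of freedom between it and the other two was 51.1 and 45.1, against 7.26 to 18.6 for all other pairs of libraries of a group, and its 25 most abundant genes took 9.11% of its counts, against 6.74% to 7.97% in the other libraries of the series. Without that library, a comparison added after seeing the data, 15351 of 19191 genes were called in Chd8+/-. Of 15825 genes called in Chd8+/+ and tested there, 14439 (91.2%) were called in the same direction, 4 were called in the opposite direction, and r was 0.978 across 18782 genes. The interaction again called 0 genes, of 19996 tested in edgeR, with 1940 at an unadjusted p under 0.05, again a share above 0.05. Of the 9 lists above, the Chd8+/- median without that library was 3.07 for oligodendrocyte precursors, 1.79 for cadherins, -4.55 for erythroid genes, -3.99 for bHLH factors, 2.66 for sodium channels, 1.36 for choroid plexus, 0.63 for myelinating oligodendrocytes, 0.26 for mitochondrial protein genes and -3.37 for ventral telencephalon progenitors.

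**Figure D5:**
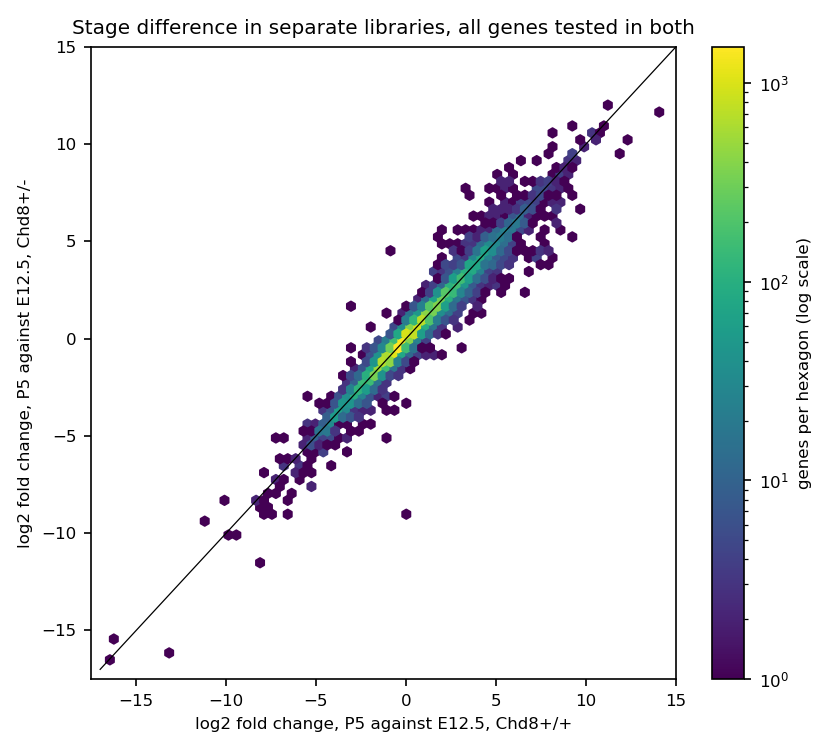
Log2 fold change between the stages, P5 minus E12.5, in Chd8+/+ (x axis) against Chd8+/- (y axis), with the density of genes in hexagonal bins on a log color scale. Genes lie along the diagonal, with r = 0.980 across 18651 genes.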

How the data were processed

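The authors trimmed paired reads with Trim Galore 0.4.1, aligned them to GRCm38 with TopHat2 2.1.0 and counted them on Ensembl release 82 gene models with featureCounts 1.5.0. The deposited values are raw counts per gene and run, one table per stage, without normalization, together with the length of each gene's merged exons, which the authors deposited in bases and which was used for CPM per kb. Strand was not used in the P5 counting command, so that reads of overlapping genes are not separated there. No command is recorded for E12.5, and whether both stages were counted alike in this respect is not given in the sources used here. Of 67 genes chosen for description library by library, 22 share an exon stretch with another annotated gene. Symbols were found for 46005 of 46603 gene identifiers, and 1 listed symbol was not matched.

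Runs were summed (chi-squared per degree of freedom between runs was far below that between replicates), giving 42782134 to 54695236 counts per library. Stages were compared with edgeR 4.0.16 under R 4.3.3 (TMM, filterByExpr, quasi-likelihood F test, Benjamini-Hochberg over all genes tested, called at an adjusted p under 0.05). The procedure was also run on simulated counts in which few genes were changed. Most genes were called in the real data, so that the simulation does not show how scaling and calls behave in that case. The standard error is the log2 fold change over the square root of F. Genes without a count at a stage are given as a bound, from 3 counts over that stage's libraries; with such genes placed at their bound the list medians were the same. Counting intervals are exact at 95%.

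Named genes are these 67, in each list the 3 called members with the largest change in each direction and those not called, and the 10 largest changes in each direction among genes with at least 10 CPM at the higher stage and no overlap. Some of these genes are not reported here. Some further members were named after their values were seen, for their role. The members, gene lists and tests were chosen with earlier results of these data known. Sequences are RefSeq windows of GRCm38.p6. Alternatives were other scalings, filters, DESeq2 1.42.0, limma-voom of limma 3.58.1, a test against 2-fold, a threshold of 0.01, the first run alone, all 12 libraries in 1 model, X and Y genes left out, a replicate block, and the omission of single libraries, that of P5 Chd8+/- replicate 3 chosen after seeing the data.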

Additional observations from a re-analysis of the deposited data

How the results depend on the processing

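The number of genes called stayed within 1.5 times the reported number in all alternatives, a wide limit where 84.0% of the genes tested were called. It lay between 13541, with a mean of at least 1 CPM required, and 17753, without a filter on low counts. Leaving out each library in turn, with the filter on low counts set anew, gave 15627 to 16096 called genes, 5047 to 5212 that rose by at least 2-fold and 3854 to 3945 that fell by as much. The division between higher and lower genes moved with the scaling, from 8116 against 7802 with DESeq2's size factors to 7679 against 8332 with library totals alone, and DESeq2's own test gave 8409 against 7557. A test against a change of 2-fold called 4392 higher and 3067 lower genes. Medians of the gene lists kept their direction in all 879 values, 25 of which moved by more than the spread between libraries. Of 6893 values of 364 named genes 86 became calls and 63 lost their call, for Aup1, Cldn11, Dpf3, Gad2, Gpx3, Heatr5b, Ndn, Pttg1, Tubb5, 2700062C07Rik, mt-Co3 and mt-Tm. Of the 364 named genes 309 were called with all libraries, and the 86 values that became calls belonged to 30 of the others. For these 30 the absence of a call depends on the processing. Among them, Abcc9 (0.17) became a call without E12.5 replicate 2. Plxna2 (-0.19), Rplp1 (-0.21) and Slc17a6 (-0.16) did so without E12.5 replicate 1, Bmp4 (-0.35) without E12.5 replicate 3 and Slc17a6 (-0.17) also without P5 replicate 1. Xist, not called with all libraries (-0.97), had a log2 fold change of 7.29 without E12.5 replicate 3 (adjusted p = 0.0276 in edgeR) and -11.59 without P5 replicate 1, which are the libraries of each stage with high Xist counts.

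The replicate numbers did not pair the samples. The correlation of deviations between libraries of the same number was -0.169, 0.237 and -0.256, and with the replicate number as a block 15970 genes were called, 7932 higher and 8038 lower. Depth limits the ratios of genes with few counts at a stage, which have wide intervals. Stage, hemisphere number and batch cannot be told apart, and no value within a batch exists.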

Other observations

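Some named genes had 1 library far from the others of its group, and Gabra2, Ttr and Ndn are given here in both genotypes, having been chosen after the values were seen. Gabra2, at 81.5, 81.0 and 39.5 CPM in the P5 Chd8+/+ libraries, was at 36.2, 43.4 and 74.3 CPM in the P5 Chd8+/- libraries. Levels near 40 and near 80 CPM thus occurred in both genotypes. The imprinted gene Ndn was at 118, 316 and 269 CPM at E12.5 and at 513, 299 and 481 CPM at P5 in Chd8+/+, overlapping between the stages although it was called. In Chd8+/- it was at 129, 126 and 299 CPM at E12.5 and at 246, 495 and 239 CPM at P5, which overlap as well. Ttr, a choroid plexus gene, was at 68.9, 63.9 and 28.3 CPM at E12.5 and at 412, 537 and 438 CPM at P5 in Chd8+/+, and at 66.4, 63.5 and 76.8 CPM and 334, 364 and 307 CPM in Chd8+/-, so that its stages did not overlap in either genotype.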
